A study of Mus musculus with 6 samples.

Results

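The genes described here build the route from the endoplasmic reticulum (ER) to the Golgi: the COPII and COPI vesicle coats, the receptors that load cargo, the KDEL receptors, and the SNAREs and a tether that receive the vesicles. A list of 35 mouse genes was taken by GENCODE M21 symbol, and 33 of them had 10 or more counts in at least 3 libraries. The same 33 were among the 8200 genes tested, of 53465 listed. Tmed2 and Kdelr3 did not reach that level and have counts but no test. RNA was sequenced from 6 libraries of ID8, a mouse ovarian surface epithelial cancer line, to ask what changes when Nat10, the enzyme of N4-acetylcytidine on RNA, is depleted. The 3 libraries labelled KO were taken as cells stably carrying the guide sgNat10, and the 3 labelled WT as cells stably carrying the control guide sgNC. Each guide is 1 line, so a difference between the lines and an effect of the guide cannot be told apart. The replicates are numbered 4 to 6 in each group with nothing on their origin, so the p-values cover no more than library-to-library spread, possibly technical in part.

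Total counts were 2234305 to 3126208 in the KO-labelled and 1687466 to 2148715 in the WT-labelled libraries. Nat10 itself had 315, 133 and 445 counts in the KO-labelled and 168, 128 and 292 counts in the WT-labelled libraries. Its log2 fold change was -0.07 (95% interval -1.09 to 0.94), so its mRNA did not separate the groups, and these are named by their labels throughout. Of 11 ovarian surface and mesothelial markers 7 were tested, Krt19, Msln and Wt1 among them, while Epcam had no count. Their summed level was 4681 to 5337 CPM (read counts scaled to library size) in the KO-labelled and 6225 to 6677 CPM in the WT-labelled libraries. Within it Krt19 was lower (2223 ± 32.1 CPM in KO-labelled and 4202 ± 203.1 CPM in WT-labelled libraries, edgeR adjusted p = 0.00440), as was Krt18 (adjusted p = 0.0195), while Msln was higher (1636 ± 209 CPM in KO-labelled and 789 ± 83.5 CPM in WT-labelled libraries, adjusted p = 0.0145; SD, 3 libraries each). The summed level of 10 immune markers was at most 9.31 CPM in KO-labelled and 43.5 CPM in WT-labelled libraries, that of 7 endothelial markers at most 2.48 and 5.996 CPM. Of these genes 8 and 6 had no more than 3 counts over all libraries, and Cd3e, Itgam, Tyrobp and Emcn were among those with none. The exceptions were Cd14, Cd68 and Tek. Cd14 had 0, 14 and 25 counts in the KO-labelled and 18, 58 and 0 in the WT-labelled libraries. Cd68 had 10 and 29 counts in WT replicates 4 and 5 and 0 in every other library, and Tek had 12 counts in WT replicate 5. The 10 fibroblast and pericyte markers summed to 968 to 1325 CPM in the KO-labelled and 756 to 780 CPM in the WT-labelled libraries, mostly from Dcn. Of the 2 tested, Dcn was higher in the KO-labelled libraries (adjusted p = 0.246 in edgeR and 0.00469 in DESeq2). Col1a1 went the other way, at 6.17 ± 8.77 CPM in KO-labelled and 67.1 ± 21.9 CPM in WT-labelled libraries (adjusted p = 0.479 in edgeR and 0.0251 in DESeq2). What these marker levels contribute to the results below was not tested. In such bulk RNA, fewer cells of a type and less RNA per cell cannot be told apart.

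Secretory proteins leave the ER in COPII vesicles. The GTPase SAR1, loaded by its exchange factor SEC12 (the product of Preb), recruits an inner coat of SEC23 and SEC24 and then an outer cage of SEC13 and SEC31, at exit sites organised by SEC16. COPI vesicles, coated with the coatomer complex under the GTPase ARF1, carry escaped ER proteins and recycling receptors back. KDEL receptors catch soluble ER chaperones such as BiP in the Golgi for that return trip, and many of these genes are known targets of the transcription factors of the unfolded protein response.

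Promoters of many, but not all, of these genes held a short sequence that the list did not use. RefSeq promoter windows (GRCm38.p6, 250 bases before to 50 bases after the start site) were matched by symbol for 31 of the 35 genes, all but Arcn1, Kdelr2, Lman1 and Tmed2. Both strands were searched for 4 motifs. These were ERSE, the ER stress element, UPRE, the unfolded protein response element (TGACGTGG), GASE, the Golgi stress element (ACGTGGC), and the letters ACGTGG that lie within UPRE and GASE, so that each match to either is also a match to this core. The core was found in the promoters of 17 of 31 genes (54.8%), against 14.1% of 6504 tested genes with a promoter entry. Counted by window, it was in 52.8% of 36 windows of the listed genes, 11.9% of 8343 windows of tested genes and 8.31% of all 32851 windows. UPRE was found for 7 of the 31 genes (22.6%) and in 1.08% of tested genes. GASE was found for 11 (35.5%) and in 4.89% of tested genes, and ERSE for none and in 0.185%. A wider list of early secretory pathway genes, 74 with a promoter entry, lay between these shares, with the core for 28.4%, GASE for 20.3% and UPRE for 4.05%. Of the 19 matches to the core, 14 began within 50 bases of the start site, and the same count was not made for other genes. A match is a string of letters and not a measured binding site, and no test of the difference in share was made. The 16 tested genes with the core had a median log2 fold change of -0.28 and 12 estimates below 0, and the 14 without it a median of -0.02 and 8 below 0. Arcn1, Kdelr2 and Lman1, tested but without a promoter entry, are in neither set and had estimates of -0.30, -0.46 and -0.51. All tested genes had a median of -0.02, with 51.0% of estimates below 0. Whether the core goes with a lower level was not tested. No match says only that these letters are not in the window. The 30-base stretches below are those of the 7 genes with UPRE and of Copz1, Copg1 and Sec13, the 3 genes with an unadjusted p under 0.05 in the comparison that follows, each read on the strand where the core, in capitals, is ACGTGG.
Copz1: tagctgctgccgACGTGGagtcgcacaagc
Copg1: gtgctcagggcgACGTGGcgggcgggagta
Copb2: gccaacccactgACGTGGaacttccgggaa
Copb1: agtccttggctgACGTGGaagggggcgggg
Arf1: cggcaggcgctgACGTGGctgccgtcagcg
Sec13: ccacggcctcggACGTGGcagctcaaaacg
Sec23a: tcctcccctttgACGTGGcagaggcggcac
Sec24d: cccgggcgcctgACGTGGcactagcaaccc
Kdelr3: ggccgcgcggtgACGTGGcggggcggccag
Stx5a: cctaactcggtgACGTGGctgctgcgccac
The Copz1 window is chr15:103272886-103272915 on the minus strand and that of Copg1 is chr6:87887931-87887960 on the plus strand. Copb2 lies at chr9:98563712-98563741 (minus), Copb1 at chr7:114254691-114254720 (plus), Arf1 at chr11:59228227-59228256 (minus) and Sec13 at chr6:113740666-113740695 (plus). Sec23a lies at chr12:59011992-59012021 (minus), Sec24d at chr3:123267460-123267489 (plus), Kdelr3 at chr15:79516366-79516395 (minus) and Stx5a at chr19:8741421-8741450 (minus). Stx5a has another match to UPRE and GASE, at chr19:8741453-8741473 (plus), which is not printed.

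**Figure D1:**
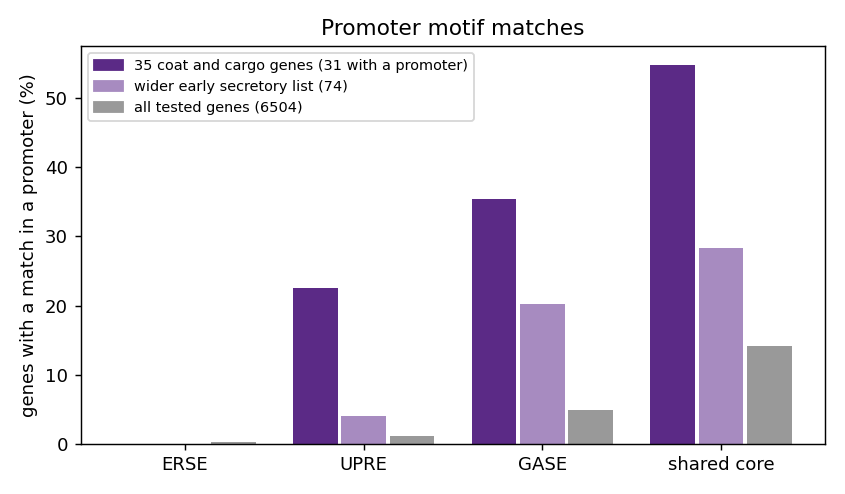
Percentage of genes with a promoter match to each motif (vertical axis) among the 31 coat and cargo genes with a promoter entry, 74 genes of a wider early secretory list and 6504 tested genes. The coat and cargo genes had the highest share for UPRE (22.6%), GASE (35.5%) and the core shared by both (54.8%), and no match to ERSE.

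No coat, cargo or SNARE gene passed an adjusted p of 0.05 in the quasi-likelihood test of edgeR, adjusted by Benjamini-Hochberg over all 8200 genes, where 0.402% of tested genes were called (0.183% higher, 0.22% lower in KO-labelled libraries). The smallest adjusted p was 0.408, for Copz1. At an unadjusted p under 0.05 there were 3 members, Copz1, Copg1 and Sec13, all lower in the KO-labelled libraries, against 6.49% of tested genes at that level, 3.79% lower and 2.7% higher. Limma-voom called no member. DESeq2 called 1, Copz1 (adjusted p = 0.0286), where it called 2.85% of tested genes (1.29% higher, 1.56% lower). The estimate was below 0 for 23 of 33 members, against 51.0% of tested genes. The median log2 fold change of the members was -0.14, against -0.02 for all tested genes. Scaling by library totals in place of TMM moved the median of all genes by 0.11, and the members then stood at -0.04 against 0.09 for all genes, a distance of -0.13 under either scaling. That distance was -0.03 without WT replicate 6, -0.05 without KO replicate 6 and -0.22 without WT replicate 5.

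**Figure D2:**
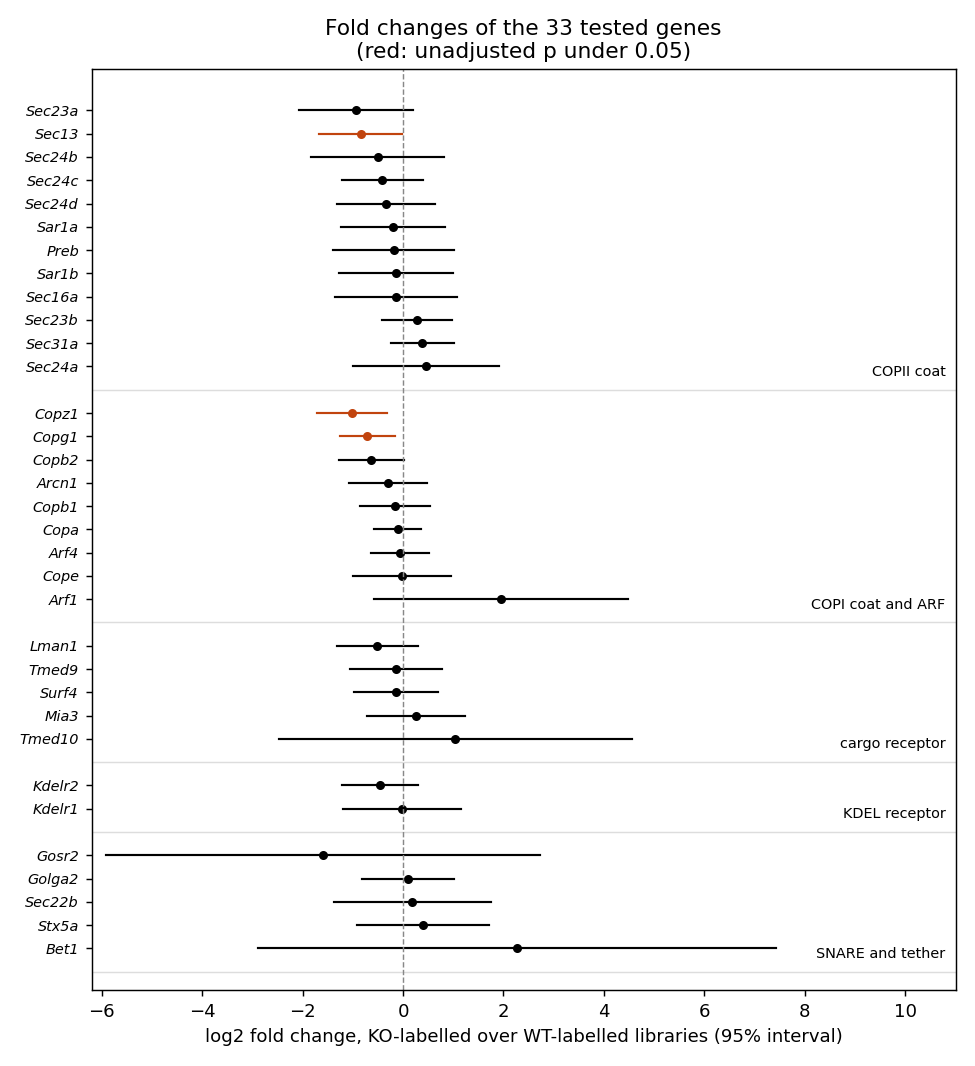
Log2 fold change of the 33 tested genes, KO-labelled over WT-labelled libraries, with 95% intervals (horizontal axis), grouped by role (vertical axis). Copz1, Copg1 and Sec13, in red, have intervals below 0, and the widest intervals are those of Bet1, Gosr2 and Tmed10.

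Within the coatomer, the 7-subunit complex that coats COPI vesicles, the estimates of all 7 subunits lay below 0, though the smallest, Cope at -0.02 and Copa at -0.11, turned above 0 in 3 and 1 of 7 other analyses of the full set, and Copa, Copb1 and Cope did so with some library left out. The groups stood apart without overlap for 3 of the 7, Copz1, Copg1 and Copb2, all lower in the KO-labelled libraries. Among all tested genes 7.93% stood apart in that direction and 6.94% in the other.

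Copz1 encodes the zeta subunit, a small adaptor-like subunit that pairs with gamma. It had 102, 131 and 89.97 CPM in the KO-labelled libraries, against 200, 221 and 232 CPM in the WT-labelled libraries. Every KO-labelled library was thus well under every WT-labelled one, and the spread inside each group was small, at 107 ± 20.9 CPM in KO-labelled and 218 ± 16.1 CPM in WT-labelled libraries (SD, 3 libraries each). The log2 fold change was -1.02 ± 0.32 (SE; 95% interval -1.71 to -0.33), a 2.03-fold lower level, with an unadjusted p of 0.00677 and an adjusted p of 0.408 in edgeR. With 1 library left out the estimate ran from -1.17 to -0.91, and the highest unadjusted p over all alternatives was 0.0222 (adjusted p from 0.0286 to 0.910). Copz1 (ENSMUSG00000060992) spans 103272714 to 103299868 on chromosome 15 of mm10, and its exons are not overlapped by another annotated gene.

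Copg1 encodes gamma-1, the subunit that binds zeta. It had 271, 254 and 436 CPM in the KO-labelled libraries, against 612, 488 and 479 CPM in the WT-labelled libraries. KO replicate 6 came close to the WT-labelled range, and the other KO-labelled libraries were far under it. The log2 fold change was -0.72 ± 0.26 (SE; interval -1.26 to -0.17; edgeR unadjusted p = 0.0139, adjusted p = 0.510), and DESeq2 gave an adjusted p of 0.1005. Without KO replicate 4, KO replicate 5 or WT replicate 4 the unadjusted p was 0.0616, 0.0623 and 0.0583. On chromosome 6, from 87887814 to 87913595, 8.55% of its exon bases are overlapped by a gene on the other strand.

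Copb2 encodes beta prime, a subunit of the outer part of the coat that reads dilysine signals on cargo. It had 222, 307 and 135 CPM in the KO-labelled and 318, 378 and 330 CPM in the WT-labelled libraries. The groups were separate by a narrow margin, between KO replicate 5 and WT replicate 4. The log2 fold change was -0.63 ± 0.31 (interval -1.28 to 0.02; edgeR unadjusted p = 0.0580, adjusted p = 0.811).

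The other 4 subunits overlapped between the groups. Copa, the alpha subunit and the partner of beta prime, had 432, 645 and 566 CPM in the KO-labelled and 512, 560 and 698 CPM in the WT-labelled libraries. Its log2 interval of -0.58 to 0.37 lies within a 2-fold change in either direction. Exons of Gm37756 and Ncstn overlap 9.58% of the exon bases of Copa. Copb1 (beta), Arcn1 (delta) and Cope (epsilon) had log2 fold changes of -0.15, -0.30 and -0.02, with intervals of -0.85 to 0.54, -1.08 to 0.48 and -0.99 to 0.95.

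Summed over the 7 subunits, the coatomer transcripts stood at 1434, 1684 and 1647 CPM in the KO-labelled libraries and 2179, 2016 and 2161 CPM in the WT-labelled libraries. The KO-labelled mean was 0.750 of the WT-labelled mean (1588 ± 135 CPM in KO-labelled and 2119 ± 89.6 CPM in WT-labelled libraries, SD, n = 3 per group), and 0.809 of it when counts were scaled by library totals. No p is given, since the subunits were grouped with their values known. Without Copz1, Copg1 and Copb2, a sum formed after their values were seen, the remaining 4 subunits summed to 839, 992 and 986 CPM in the KO-labelled and 1049, 929 and 1120 CPM in the WT-labelled libraries, and the groups overlapped.

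**Figure D3:**
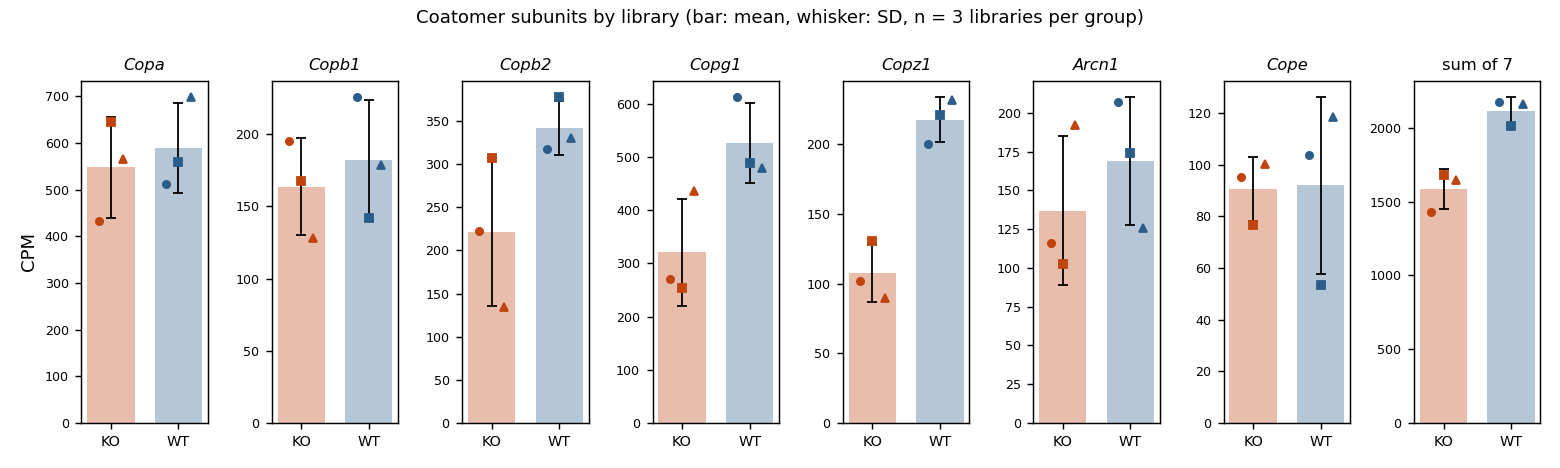
CPM of each coatomer subunit and of their sum (vertical axes, each from 0) in libraries labelled KO and WT. Bars are means and whiskers SD of 3 libraries, circles are replicate 4, squares replicate 5 and triangles replicate 6. Copz1, Copg1, Copb2 and the sum have groups that do not overlap, with the sum at 1588 CPM in the KO-labelled and 2119 CPM in the WT-labelled group.

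Per exon kilobase, the subunits of this complex were not at 1 level. In the KO-labelled libraries Copa stood at 58.1 ± 11.4 CPM per kb, Copb2 at 34.9 ± 13.6, and Copz1, Copb1, Copg1 and Cope at 29.3, 29.3, 29.1 and 27.04 CPM per kb. In the WT-labelled libraries Copa stood at 62.6 ± 10.2, Copz1 at 59.4 ± 4.41, Copb2 at 53.8 ± 4.97, Copg1 at 47.8 ± 6.77, Copb1 at 32.6 ± 7.51 and Cope at 27.4 ± 10.2 CPM per kb. Copz1 was level with Copa within their spread in the WT-labelled group and below it in the KO-labelled group. Copz1 thus made up 13.6%, 15.2% and 11.6% of the per-kilobase sum in the KO-labelled libraries, against 18.2%, 21.8% and 20.5% in the WT-labelled libraries. Arcn1 was the lowest subunit in both groups, at 9.19 CPM per kb in KO-labelled and 11.3 CPM per kb in WT-labelled libraries, but its annotated exons are the longest (14915 bases). Exon lengths are the union of all annotated exons of a gene in GENCODE M21, 11011 bases for Copg1 and 9427 for Copa. The release used for counting is left unnamed by the sources used here. Comparisons of level per kilobase between different genes, here and below, therefore depend in part on the annotation.

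The GTPases of the ARF family gave a different picture. Arf1, which recruits coatomer to the Golgi, had 37.5, 44.1 and 52.7 CPM in the KO-labelled libraries, against 18.8, 13.5 and 2.31 CPM in the WT-labelled libraries. All KO-labelled libraries were above all WT-labelled ones, but the WT-labelled values spread 8.15-fold among themselves on 31, 27 and 4 counts. The log2 fold change was 1.95 ± 1.19 with an interval of -0.59 to 4.49 (edgeR unadjusted p = 0.122, adjusted p = 0.999). Of its annotated 50-base sequences, 10.5% also occur in transcripts of other genes, so its counts are uncertain. Its share in the per-kilobase level of Arf1 and Arf4 was 10.7%, 11.03% and 14.5% in the KO-labelled libraries and 8.47%, 3.97% and 0.472% in the WT-labelled libraries, without overlap (two-sided exact permutation p = 0.1, 0.333 adjusted). Arf3 and Arf5 were not in this set. They averaged 124 and 69.4 CPM in the KO-labelled and 108 and 49.2 CPM in the WT-labelled libraries. Arf4, which acts in Golgi traffic and in the response to Golgi stress, was the most abundant member per length, at 156 ± 12.2 CPM per kb in the KO-labelled and 162 ± 68.1 CPM per kb in the WT-labelled group. Its values were 537, 614 and 538 CPM in the KO-labelled and 351, 563 and 841 CPM in the WT-labelled libraries, a 1.14-fold and a 2.39-fold range around nearly the same mean. Exons of Arf4os and Pde12 overlap 17.7% of its exon bases.

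In the COPII coat, 9 of 12 genes had estimates below 0, against 51.0% of all tested genes. At an edgeR unadjusted p under 0.05 there was 1, against 6.49% of all tested genes, 3.79% lower and 2.7% higher. The summed level of the 12 was 1433, 1141 and 1381 CPM in the KO-labelled and 1418, 1494 and 1499 CPM in the WT-labelled libraries, with overlap. The gene with the lowest p was Sec13, a subunit of the outer cage that also serves in the nuclear pore. It had 154, 86.5 and 156 CPM in the KO-labelled and 118, 297 and 298 CPM in the WT-labelled libraries. WT replicate 4 lay among the KO-labelled values, and the other WT-labelled libraries stood far above them. The log2 fold change was -0.85 ± 0.39 (interval -1.68 to -0.01; edgeR unadjusted p = 0.0473, adjusted p = 0.748), and the unadjusted p was 0.182 without WT replicate 5 and 0.00593 without WT replicate 4. Sec31a, which forms the cage with SEC13, was at 297, 296 and 266 CPM in the KO-labelled and 302, 197 and 161 CPM in the WT-labelled libraries, an estimate of 0.38 with an interval of -0.25 to 1.01.

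The inner coat is made of SEC23, which activates the GTPase of SAR1, and SEC24, which binds cargo. Sec23a had 62.4, 25.3 and 56.8 CPM in the KO-labelled libraries, against 85.7, 114 and 78.6 CPM in the WT-labelled libraries. It was the only COPII gene of the 12 whose groups did not overlap, where 7.93% of all tested genes stood apart lower in the KO-labelled libraries. Its log2 fold change was -0.94 ± 0.53 (interval -2.08 to 0.19; edgeR unadjusted p = 0.0959, adjusted p = 0.951). Its paralog Sec23b had 277, 236 and 159 CPM in the KO-labelled and 212, 217 and 126 CPM in the WT-labelled libraries, with overlap and an estimate of 0.28 (interval -0.43 to 0.98). The share of Sec23a in the per-kilobase level of both SEC23 genes was 22.7%, 12.2% and 31.7% in the KO-labelled libraries, against 34.5%, 40.6% and 44.8% in the WT-labelled libraries. The shares did not overlap, and the KO-labelled mean was lower, at 22.2% ± 9.74 in KO-labelled and 40.0% ± 5.17 in WT-labelled libraries (SD; two-sided exact permutation p = 0.1, the lowest 3 against 3 libraries can give, and 0.333 adjusted over 10 paralog shares). A gene on the other strand overlaps 8.90% of the exon bases of Sec23a.

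Among the SEC24 cargo adaptors, Sec24c was the most abundant per length (17.6 ± 3.77 and 23.4 ± 6.75 CPM per kb in KO-labelled and WT-labelled libraries), followed by Sec24d (12.6 ± 3.25 and 16.1 ± 5.15), Sec24b (8.59 ± 5.19 and 12.2 ± 1.31) and Sec24a (4.96 ± 1.96 and 3.61 ± 1.08). The SD ranges of neighbours in this order overlapped, except those of Sec24b and Sec24a in the WT-labelled group. The share of Sec24a in the SEC24 set was 8.15%, 11.7% and 13.6% in the KO-labelled libraries and 5.32%, 7.54% and 6.74% in the WT-labelled libraries, again without overlap (two-sided exact permutation p = 0.1, 0.333 adjusted). None of the 4 genes had an unadjusted p under 0.05, and their log2 fold changes ran from -0.50 for Sec24b to 0.46 for Sec24a. Sec24b had 15.6, 69.4 and 70.1 CPM in the KO-labelled and 70.5, 66.96 and 82.1 CPM in the WT-labelled libraries, so its lower mean came from KO replicate 4.

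The genes that start the coat were spread widely within the groups. The SAR1 GTPase Sar1b was the most abundant COPII gene per length (73.0 ± 41.2 and 80.7 ± 32.9 CPM per kb in KO-labelled and WT-labelled libraries). It had 105, 34.7 and 136 CPM in the KO-labelled and 136, 55.5 and 113 CPM in the WT-labelled libraries, so replicate 5 was the lowest in each group. Sar1a had 189, 68.9 and 60.5 CPM in the KO-labelled and 80.9, 135 and 151 CPM in the WT-labelled libraries. The exchange factor gene Preb and the exit site scaffold Sec16a had estimates of -0.19 and -0.14, with intervals that reach past a 2-fold change in both directions. Sec16a had a wide spread of 36.7, 42.8 and 140 CPM in the KO-labelled libraries, against 73.6, 99.9 and 68.8 CPM in the WT-labelled libraries. Preb shares 21.8% of its exon bases with Abhd1.

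**Figure D4:**
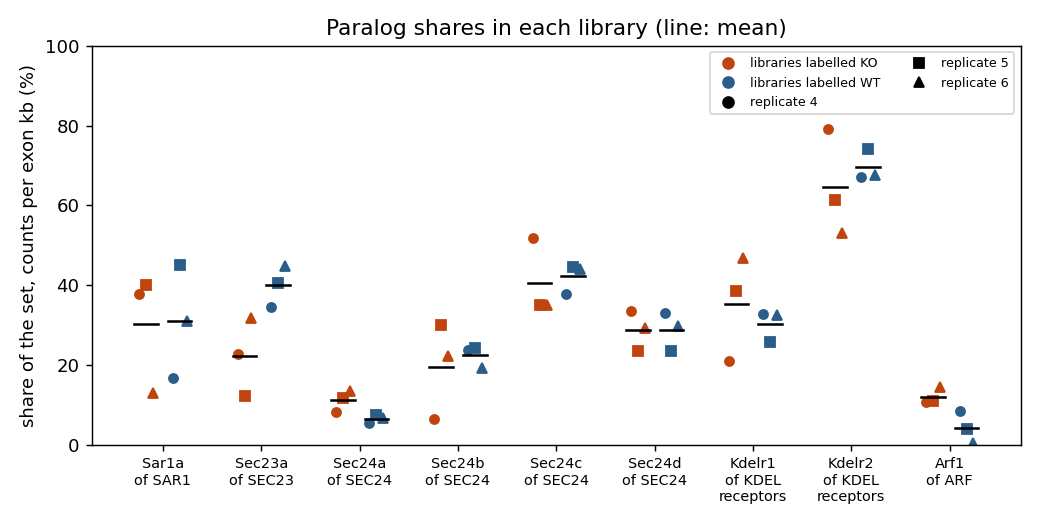
Share of each paralog in the summed counts per exon kilobase of its set (vertical axis, percent) in each library, with the group mean as a line. The ARF set holds only Arf1 and Arf4. Sec23a is lower and Sec24a and Arf1 are higher in all 3 KO-labelled libraries than in the 3 WT-labelled ones, while Sar1a, Sec24b, Sec24c, Sec24d, Kdelr1 and Kdelr2 overlap.

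None of the 5 cargo receptors tested had an unadjusted p under 0.05. Lman1, the mannose lectin ERGIC-53 that ferries glycoproteins such as coagulation factors, had 123, 213 and 86.9 CPM in the KO-labelled and 156, 197 and 248 CPM in the WT-labelled libraries. The groups overlapped through KO replicate 5, and the estimate was -0.51 ± 0.37 (interval -1.31 to 0.29, edgeR unadjusted p = 0.196). Surf4, a receptor for soluble secreted proteins and the most abundant of this class per length, had 217, 191 and 70.4 CPM in the KO-labelled and 184, 175 and 167 CPM in the WT-labelled libraries. Its WT-labelled values were tight, and its KO-labelled values spread 3.07-fold. Mia3 encodes TANGO1, which loads collagens, and its estimate was 0.26 with an interval of -0.72 to 1.24.

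The p24 proteins are small receptors that cycle in both coats. Tmed9 had an estimate of -0.14 (interval -1.06 to 0.77). Tmed2 had 75, 52 and 3 counts in the KO-labelled and 7, 3 and 0 counts in the WT-labelled libraries, too few for the test, and Tmed10 had 129, 58 and 50 counts in the KO-labelled and 14, 71 and 0 counts in the WT-labelled libraries. The groups of both genes overlapped. Of their 50-base sequences, 22.0% for Tmed2 and 8.40% for Tmed10 also occur in transcripts of other genes, pseudogene copies such as Tmed10-ps among them, so the counts of these genes are uncertain.

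The KDEL receptors had the same order of mean levels in both groups. Kdelr2 stood at 71.0 ± 18.8 CPM per kb in the KO-labelled and 97.4 ± 26.3 CPM per kb in the WT-labelled group, and Kdelr1 at 42.1 ± 22.6 CPM per kb in the KO-labelled and 42.8 ± 15.4 in the WT-labelled group, apart by more than their SDs in the WT-labelled group alone. Kdelr3 had 1 count, in KO replicate 5, and no count in the WT-labelled libraries. There 3 counts over the group would be 0.531 CPM when scaled by library totals, without TMM. Kdelr2 had 112, 170 and 108 CPM in the KO-labelled and 136, 167 and 231 CPM in the WT-labelled libraries, with overlap and an estimate of -0.46 ± 0.35 (interval -1.21 to 0.30, edgeR unadjusted p = 0.218). Kdelr1 had 30.4, 109 and 97.4 CPM in the KO-labelled and 68.1, 59.5 and 113 CPM in the WT-labelled libraries, and an estimate of -0.03 (interval -1.20 to 1.15).

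Vesicles from the ER fuse through the SNAREs syntaxin 5, membrin, SEC22B and BET1 after capture by tethers such as GM130. None of these 5 genes had an unadjusted p under 0.05. Bet1 was higher in every KO-labelled library, with 48, 28 and 49 counts against 13, 3 and 0 counts in the WT-labelled libraries, and an interval of -2.88 to 7.43 on the log2 scale. Gosr2, which encodes membrin, had 46, 13 and 0 counts in the KO-labelled and 51, 30 and 43 counts in the WT-labelled libraries. Sec22b spread 12.8-fold within the KO-labelled group, at 61.6, 127 and 9.93 CPM, and 1.62-fold in the WT-labelled group, at 75.4, 46.5 and 52.0 CPM.

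Stx5a, syntaxin 5, had 82.7, 211 and 45.9 CPM in the KO-labelled and 79.0, 146 and 30.6 CPM in the WT-labelled libraries, so that the spread within each group exceeded the difference between them. Golga2, which encodes GM130, was at 144, 82.6 and 79.1 CPM in the KO-labelled and 103, 105 and 77.5 CPM in the WT-labelled libraries, an estimate of 0.10 (interval -0.82 to 1.01).

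**Figure D5:**
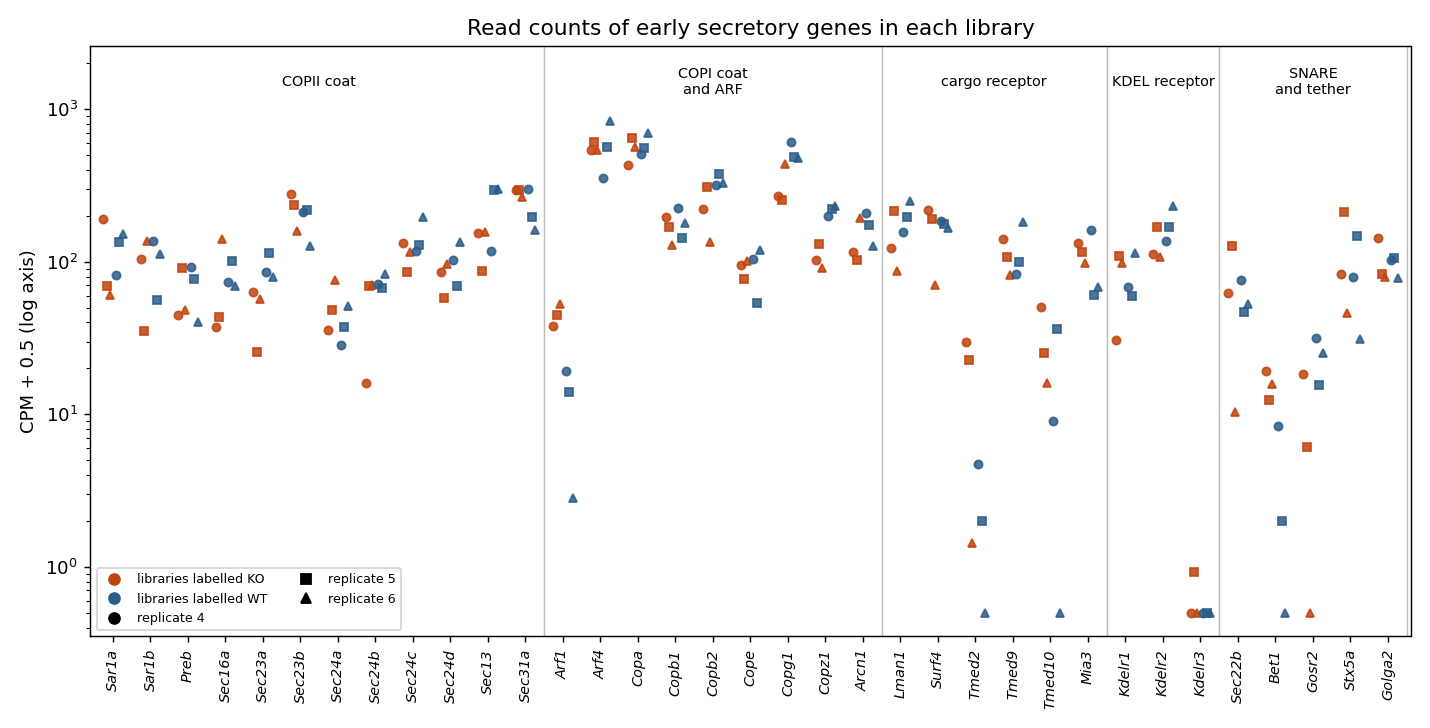
CPM plus 0.5 of each of the 35 genes (vertical log axis) in each library, with genes grouped by role along the horizontal axis. KO-labelled libraries are red and WT-labelled blue, and shapes give the replicate. Only Copz1, Copg1, Copb2 and Sec23a lie lower, and Arf1 and Bet1 higher, in all KO-labelled libraries. Among all tested genes 7.93% lie lower and 6.94% higher in this way.

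Spread within the groups set what these data can resolve. The highest library exceeded the lowest more than 2-fold for 15 of 33 members in the KO-labelled group and for 12 in the WT-labelled group. The median coefficient of variation of the members was 35.1% in the KO-labelled and 29.9% in the WT-labelled group, against 56.2% and 49.2% for all tested genes, which are less abundant (median 36.6 CPM, against 106 CPM for the members). Among the 33 members, KO replicate 6 was the lowest of the 6 libraries for 10 and the highest for 3. WT replicate 6 was extreme both ways, the highest for 12 and the lowest for 8, with 2 members at 0. For 6 members, Sec23b, Arf4, Copa, Copb1, Cope and Surf4, the interval lay wholly within a 2-fold change in either direction. For the others a 2-fold change in at least 1 direction is inside the interval, and a missed threshold does not show equal levels.

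The wider early secretory pathway, 87 further genes found by symbol of which 79 were tested, had 38 estimates below 0 and a median log2 fold change of 0.02. None passed in edgeR, DESeq2 or limma-voom, and 1 had an unadjusted p under 0.05 in edgeR, against 6.49% of all tested genes, and 4 in DESeq2, against 10.4%. Both counts are smaller shares of the 79 than these. The groups stood apart for 6 wider-list genes higher in the KO-labelled libraries (Tmed5, Cnih1, Rab1a, Golga5, Cog3 and Cog5) and for 2 lower (Tfg and Trappc12). Among all tested genes 6.94% stood apart higher and 7.93% lower. Of the 4 genes in DESeq2, Tfg was lower and Rab2a, Cnih1 and Tmed5 higher, with edgeR log2 fold changes of 0.89, 0.85 and 0.44. The gene under 0.05 in edgeR was Tfg, a protein that clusters COPII vesicles at exit sites, with 235, 238 and 115 counts in the KO-labelled libraries and 282, 379 and 253 counts in the WT-labelled libraries. In CPM its groups did not overlap, at 76.4 ± 35.7 in the KO-labelled and 169 ± 21.7 in the WT-labelled group (SD, 3 libraries each), with a log2 estimate of -1.15 ± 0.43 (edgeR unadjusted p = 0.0188, adjusted p = 0.547). Copg2 and Copz2, the paralogs of Copg1 and Copz1, had 54, 1 and 248 and 0, 23 and 66 counts in the KO-labelled libraries, and 112, 183 and 1 and 1, 0 and 69 counts in the WT-labelled libraries. Their values ran from near 0 to over 60 counts within both groups, and their intervals were -3.53 to 2.14 and -5.75 to 4.93.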

How the data were processed

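The authors deposited raw read counts per Ensembl gene, 1 column per library, from poly-A selected RNA. Tools listed per the submitters' processing notes are featureCounts 1.5.0-p3, HISAT2 2.0.5 and fastp, on build mm10. Settings and strand mode were not given in the sources used here. Reads of genes that overlap on opposite strands may therefore be mixed. Symbols, positions and exon lengths come from GENCODE M21 (53274 of 53465 genes matched), with the length of a gene taken as the union of its annotated exons.

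The test was edgeR 4.0.16 (R 4.3.3) with filterByExpr at a minimum count of 10, TMM and a robust quasi-likelihood fit with group as its only term, two-sided, and p adjusted by Benjamini-Hochberg across the 8200 genes. CPM (counts scaled to library size) uses TMM-scaled library sizes, except where library totals are named. Intervals are at 95%. The floor of 3 counts covers counting error only, since amplified copies are not independent molecules. Alternatives were DESeq2 1.42.0, limma-voom (3.58.1), other scalings and filters, a replicate block and leaving out each library. Members and lists were chosen with earlier results of these data known. Values in every library were to be given for members with an unadjusted p under 0.05, for the smallest p and highest level per kilobase of each role, and for wider-list genes with an unadjusted p under 0.05. Other members, Copg2 and Copz2 were added after their values were seen. Of 88 wider-list symbols, 1 (Ctage5) was not matched.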

Additional observations from a re-analysis of the deposited data

How the results depend on the processing

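No member was called in edgeR or limma-voom under any setting run, and DESeq2 called 1, Copz1; the wider list had 0 calls in every fit. Over all genes the 33 calls became 234 in DESeq2 and 91 without a filter on low counts. They were 15, 20 and 18 without KO replicates 4, 5 and 6, and 29, 6 and 6 without WT replicates 4, 5 and 6, so from 6 to 29. Estimates kept their sign in all fits for 19 of 33 members, Copz1, Copg1, Copb2, Sec13, Sec23a and Arf1 among them, and 14 turned with some library left out. The coatomer ratio of KO-labelled to WT-labelled means, examined after seeing the data, was 0.750, 0.727 to 0.786 with 1 library left out, and 0.909 without Copz1, Copg1 and Copb2. Same-numbered libraries did not deviate together (correlations -0.02, -0.003 and -0.007, and KO replicate 4 correlated best with WT replicate 6), so the numbers were not taken as pairs; the fit with the replicate block called 38 genes and 0 members. Low counts limit Bet1, Gosr2, Tmed10, Arf1 and the untested Tmed2 and Kdelr3.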

Other observations

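Hspa5, which encodes BiP, the main soluble cargo of the KDEL receptors, was set beside them after its values were seen. The summed CPM of Kdelr1 and Kdelr2 equalled 6.25%, 13.5% and 9.37% of the Hspa5 CPM in the KO-labelled libraries, against 4.97%, 5.42% and 7.52% in the WT-labelled libraries. The groups overlapped (two-sided exact permutation p = 0.2, where 0.1 is the lowest possible). Hspa5 averaged 2178 ± 114 CPM in the KO-labelled and 4288 ± 249.3 CPM in the WT-labelled group, and the receptor sum 209 ± 67.8 and 258 ± 75.0 CPM (SD, 3 libraries each).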
